A study of Rattus norvegicus with 6 samples.

Results

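The rat heart primordium was examined here for 8 genes that make, break down and sense catecholamines, namely Th, Ddc, Dbh, Pnmt, Maoa, Adrb1, Adcy5 and Adcy6. They were taken by gene name from 22094 distinct gene names on the array, and 9 probes carried them, since Ddc had 2 probes and each of the others had 1. All 8 genes passed the filter on dim probes, as did 14489 of the gene names on the array. RNA came from heart primordia of Wister rat embryos at embryonic day 10, with 3 samples taken before the first heartbeat (pre-heartbeat group) and 3 after it (post-heartbeat group). No treatment or genetic change was applied to either group, and the groups were told apart by the shape of the primordium and by somite number. The number of embryos behind each array sample was not given in the sources used here. Each sample was hybridized to 1 single-color Agilent array.

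Catecholamines are made from tyrosine in a chain of enzymes. Tyrosine hydroxylase (Th), the rate-limiting enzyme, makes L-DOPA, aromatic L-amino acid decarboxylase (Ddc) makes dopamine, dopamine beta-hydroxylase (Dbh) makes noradrenaline, and phenylethanolamine N-methyltransferase (Pnmt) makes adrenaline. Monoamine oxidase A (Maoa) of the mitochondrial outer membrane breaks them down. In heart muscle the beta-1 receptor (Adrb1) acts through the stimulatory G protein on adenylate cyclases, chiefly those encoded by Adcy5 and Adcy6, and the cAMP they make activates protein kinase A. Mouse embryos without Th or Dbh die in midgestation with signs of heart failure, and the embryonic heart has catecholamine-making cells of its own before sympathetic nerves reach it.

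RefSeq (build GRCr8) gave the bases just upstream of the gene start for 6 of the 8 genes, which were Th, Ddc, Dbh, Maoa, Adrb1 and Adcy5. The 250 bases before the start are shown, in the direction of transcription, for Dbh and Adcy5, which carried the largest differences below, and for Th, the first enzyme of the chain, whose groups overlapped. Capitals mark the cAMP response element TGACGTCA and its shorter variant TGCGTCA, searched on both strands.
Dbh, chr3:30886078-30886327, plus strand: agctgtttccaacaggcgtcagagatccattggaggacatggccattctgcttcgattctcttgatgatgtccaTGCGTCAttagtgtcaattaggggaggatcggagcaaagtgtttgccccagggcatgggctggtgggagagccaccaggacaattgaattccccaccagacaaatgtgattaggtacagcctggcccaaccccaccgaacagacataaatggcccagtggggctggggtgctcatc
Th, chr1:207508219-207508468, minus strand: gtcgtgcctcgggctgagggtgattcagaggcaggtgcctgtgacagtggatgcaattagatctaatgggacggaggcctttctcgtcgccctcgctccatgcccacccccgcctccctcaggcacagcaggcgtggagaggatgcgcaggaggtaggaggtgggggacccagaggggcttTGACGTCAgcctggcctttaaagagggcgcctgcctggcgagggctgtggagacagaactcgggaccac
Adcy5, chr11:79123344-79123593, minus strand: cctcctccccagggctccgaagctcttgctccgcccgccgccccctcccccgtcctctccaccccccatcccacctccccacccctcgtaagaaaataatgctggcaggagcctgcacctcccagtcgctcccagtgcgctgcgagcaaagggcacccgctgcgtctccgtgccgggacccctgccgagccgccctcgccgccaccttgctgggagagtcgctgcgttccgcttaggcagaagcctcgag
The palindrome TGACGTCA was found in 1.59% of all 33469 windows of this length and TGCGTCA in 1.66%. The Dbh window held TGCGTCA once, beginning 176 bases before the start, and the Th window held TGACGTCA once, beginning 69 bases before it. Neither was present in the windows of Adcy5, Ddc, Maoa or Adrb1. The homeodomain core ATTAG, which 23.6% of windows held, was found 3 times in the Dbh window and 2 times in that of Th, and 1 of the Dbh matches shares bases with the TGCGTCA match. The box GGGCGG, present in 30.5% of windows, was found 3 times upstream of Adcy5 and 4 times upstream of Maoa. The hypoxia-response cores ACGTG and GCGTG were present in 16.6% and 25.9% of windows; among these genes, GCGTG was found 1 time each upstream of Th and Adrb1, and ACGTG in none of the 6 genes. The GATA motifs AGATAA and TGATAA were present in 10.3% and 7.97% of windows, and AGATAA was found in 1 of the 3 Ddc windows. The matches describe the letters of these windows and were tied to no binding data.

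Transcripts of the last enzymes of the chain and of 1 adenylate cyclase were higher in the post-heartbeat group. Dbh was 2.75-fold, Adcy5 2.64-fold and Pnmt 2.06-fold higher, whereas Th, Ddc, Maoa, Adrb1 and Adcy6 had overlapping groups. Values are log2 signals less the 75th percentile of the array, so 0 is the signal of that percentile and a difference of 1 is a doubling. In limma, with Benjamini-Hochberg adjustment over all 19299 tested probes and a threshold of 0.05, 1 of the 8 genes was called higher, against 0.124% of tested probes, and 0 were called lower, against 0.0207%. At an unadjusted p under 0.05, 3 were higher, against 3.90% (752) of tested probes, and 0 lower, against 3.1% (598). The selection rule of the study's methods (at least 1.5 fold, together with an unadjusted p below 0.05) took 3 of the 8 as higher, against 1.90% of tested probes, and 0 as lower, against 1.16%. The 8 genes were chosen with earlier results of these data known, so these counts and shares describe them and test no enrichment. In whole-tissue RNA, a gene's rise in each cell and a rise in the number of cells that express it cannot be told apart.

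The arrays lay on 2 slides, and many probes differed between them. Replicate 1 of the pre-heartbeat group and replicates 1 and 2 of the post-heartbeat group shared slide 1, and the other 3 arrays were on slide 2. Slides came apart along principal component 1 (60.2% of the variance) and groups along component 2 (16.6%), and 3109 tested probes (16.1%) differed between slides in limma at an adjusted p under 0.05. Each comparison was therefore also made with the slide as a block, which called 1.09% of tested probes higher and 0.420% lower, and within each slide. A within-slide difference rests on 1 array of a group against 2 of the other. The single array is pre-heartbeat replicate 1 on slide 1 and post-heartbeat replicate 3 on slide 2. With this block, 3 of the 8 genes (Dbh, Pnmt and Adcy5) were called higher and 0 lower.

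**Figure D1:**
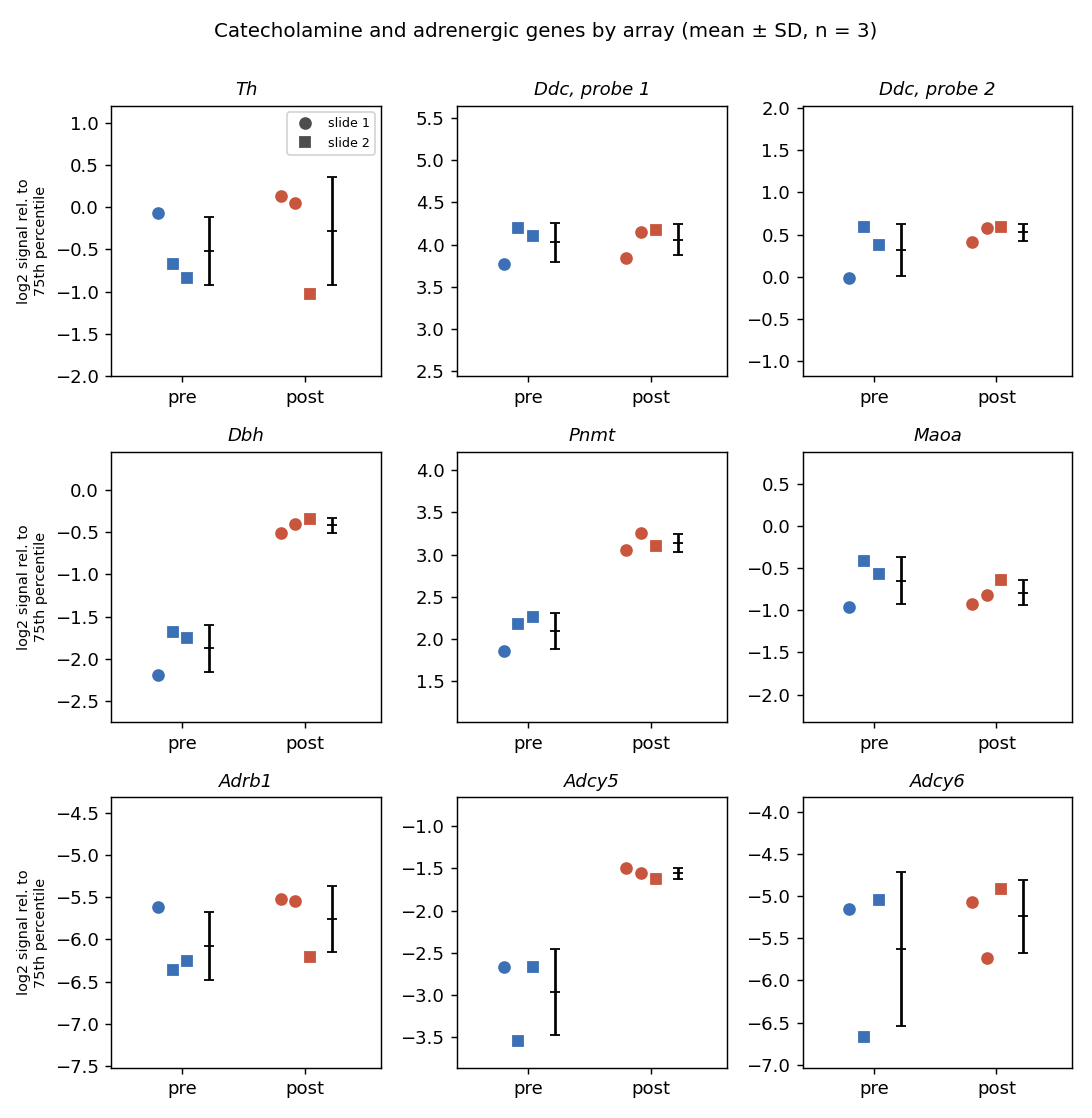
Log2 signal less the array's 75th percentile (y axis, the same span in each panel) in the 3 pre-heartbeat and 3 post-heartbeat arrays for each of the 9 probes. Circles are arrays of slide 1, squares arrays of slide 2, and bars the mean ± SD (n = 3). Dbh, Pnmt and Adcy5 have no overlap between groups, whereas Th and Adrb1 are higher on slide 1 than on slide 2 in both groups.

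Dbh makes noradrenaline from dopamine inside vesicles, and its probe lay at chr3:6069770-6069826 (plus strand, rn4 build, within the transcript of the gene). Its signal was −2.19, −1.68 and −1.76 in the pre-heartbeat arrays and −0.51, −0.40 and −0.34 in the post-heartbeat arrays. The 3 post-heartbeat arrays were all above the highest pre-heartbeat array, and they lay closer together (SD 0.09, n = 3) than the pre-heartbeat arrays (SD 0.27, n = 3). The log2 difference was 1.46 ± 0.18 (SE, 95% interval 1.05 to 1.87), with an adjusted p of 0.0488 in limma. The difference was 1.74 within slide 1 and 1.38 within slide 2, and with the slide as a block it was 1.56 ± 0.14 (SE) with an adjusted p of 0.00661 in limma. The call without the block was close to the threshold: it was lost in limma when any 1 array was left out, with adjusted p from 0.10 to 0.284 and a difference from 1.30 to 1.56. It was also lost under 6 of the other 12 alternatives, with adjusted p in limma or the test of the methods from 0.0512 to 0.272.

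Pnmt turns noradrenaline into adrenaline, and its probe had no position in the array annotation. Its signal was 1.86, 2.18 and 2.26 in the pre-heartbeat arrays and 3.06, 3.25 and 3.1 in the post-heartbeat arrays. The groups were separate, and the lowest array of all was the pre-heartbeat array of slide 1. The log2 difference of 1.04 ± 0.16 (SE, 95% interval 0.66 to 1.42) was taken by the selection rule of the methods but had an adjusted p of 0.0868 in limma. With the slide as a block it was 1.09 ± 0.15 (SE), adjusted p = 0.0201 in limma, and it was 1.30 within slide 1 and 0.88 within slide 2.

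Th, the first enzyme, had its probe at chr1:203164254-203164313 (minus strand, rn4). Its signal was −0.06, −0.67 and −0.83 in the pre-heartbeat arrays and 0.13, 0.05 and −1.02 in the post-heartbeat arrays. The 3 arrays of slide 1 were the 3 highest, whichever group they belonged to, and slide 2 was lower by 0.90 on the log2 scale (slide2 less slide1 −0.90, limma adjusted p = 0.00900). Between groups the log2 difference was 0.24 (95% interval −0.60 to 1.1), adjusted p = 0.868 in limma, and with the slide as a block it was −0.06 (95% interval −0.41 to 0.29). The blocked interval leaves room for a change of less than 1.5 fold in either direction, and no direction was shown.

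Ddc, the enzyme between Th and Dbh, was measured by 2 probes, at chr14:92698673-92698732 and chr14:92706750-92706809 (minus strand, rn4). The first probe gave 3.77, 4.20 and 4.11 in the pre-heartbeat arrays and 3.85, 4.15 and 4.18 in the post-heartbeat arrays. The second gave −0.01, 0.59 and 0.38 and then 0.42, 0.58 and 0.59. In both probes the groups overlapped and the pre-heartbeat array of slide 1 was the lowest of the 6. The log2 differences were 0.03 (95% interval −0.39 to 0.45) and 0.21 (95% interval −0.23 to 0.65), with adjusted p of 0.965 and 0.864 in limma. With the slide as a block they were 0.12 (95% interval −0.22 to 0.47) and 0.31 (95% interval −0.05 to 0.67). The blocked interval of the second probe leaves room for a rise of more than 1.5 fold. Within slide 1 the differences were 0.23 and 0.51, and within slide 2 they were 0.02 and 0.11.

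Differences between 2 genes within the same array do not depend on the scaling of the arrays, and 7 such differences were compared. Of these, Adcy5 less Adcy6 and Ddc less Maoa were listed with the design. The other 5 were chosen after the values had been seen, each pairing a gene whose groups were separate with one whose groups overlapped, and are described with no test. Dbh less Ddc was −5.96, −5.89 and −5.87 before the heartbeat and −4.36, −4.55 and −4.52 after it, and the means differed by 1.43. For Dbh less Th the means differed by 1.22, with 1.58 within slide 1 and 1.66 within slide 2, and the arrays of a group were spread widely (SD 0.67 before and 0.72 after the heartbeat, n = 3 each). For Pnmt less Ddc the means differed by 1.01. For Pnmt less Th they differed by 0.80 with overlapping groups, 1.14 within slide 1 and 1.16 within slide 2.

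Maoa, the breakdown enzyme, had its probe at chrX:17679155-17679214 (minus strand, rn4). Its signal was −0.96, −0.42 and −0.57 in the pre-heartbeat arrays and −0.93, −0.82 and −0.64 in the post-heartbeat arrays. The post-heartbeat values all lay inside the pre-heartbeat range. The log2 difference was −0.14 (95% interval −0.58 to 0.29), adjusted p = 0.864 in limma, and −0.03 with the slide as a block. Ddc less Maoa was 4.73, 4.62 and 4.68 before and 4.78, 4.97 and 4.82 after the heartbeat, a difference of 0.17 with separate groups (p = 0.1, two-sided exact permutation test). With 3 arrays against 3, 0.1 is the smallest p this test can give.

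**Figure D2:**
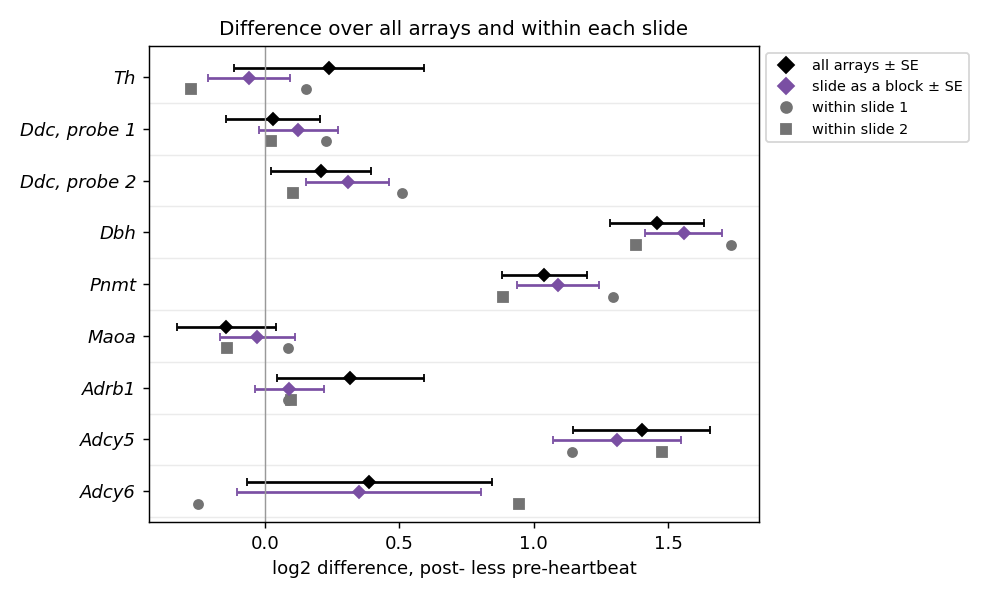
Log2 difference of the post-heartbeat less the pre-heartbeat group (x axis) for each of the 9 probes (y axis), over all arrays and with the slide as a block (diamonds ± SE) and within slide 1 (circles) and slide 2 (squares). Dbh, Pnmt and Adcy5 lie at 0.88 or above in each slide, whereas Th, Maoa and Adcy6 differ in sign between the slides. Each within-slide value sets 1 array of a group against 2 of the other.

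Adrb1, the chief beta receptor of heart muscle, had a dim probe at chr1:263026996-263027055 (plus strand, rn4). Its signal was −5.62, −6.36 and −6.25 in the pre-heartbeat arrays and −5.52, −5.55 and −6.21 in the post-heartbeat arrays. As with Th, the arrays of slide 1 were the highest in both groups, and slide 2 less slide 1 was −0.68 (limma adjusted p = 0.0131). The log2 difference between groups was 0.32 (95% interval −0.33 to 0.96), adjusted p = 0.864 in limma, and 0.09 (95% interval −0.21 to 0.39) with the slide as a block. On each of the 6 arrays 1 or both of its spots were well above background, but both were so on only 1 of the 3 pre-heartbeat arrays. Adrb3, the beta-3 receptor, was too dim to test, as it was not well above background on any array.

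Adcy5 and Adcy6 encode adenylate cyclases of the same subfamily, inhibited by calcium and by the inhibitory G protein. The Adcy5 probe, at chr11:67290990-67291049 (minus strand, rn4), gave −2.67, −3.55 and −2.67 in the pre-heartbeat arrays and −1.49, −1.56 and −1.63 in the post-heartbeat arrays. The groups were separate, with the 3 post-heartbeat arrays close together (SD 0.07, n = 3) and the pre-heartbeat replicate 2 apart from the other pre-heartbeat arrays. The log2 difference was 1.40 ± 0.26 (SE, 95% interval 0.80 to 2.01). It met the selection rule of the methods but not the limma threshold (adjusted p = 0.124), and with the slide as a block it was 1.31 ± 0.24 (SE), adjusted p = 0.0448 in limma. Without the low array, pre-heartbeat replicate 2, the difference was 1.11.

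The Adcy6 probe, at chr7:137339932-137339956 (minus strand, rn4, part of the probe), was dimmer and more variable. Its signal was −5.15, −6.67 and −5.05 in the pre-heartbeat arrays and −5.07, −5.73 and −4.92 in the post-heartbeat arrays, and it was well above background on 2 of 3 pre-heartbeat arrays. The groups overlapped, and the difference was 0.39 (95% interval −0.69 to 1.47, limma adjusted p = 0.864), −0.25 within slide 1 and 0.95 within slide 2. It turned to −0.14 when pre-heartbeat replicate 2, in which Adcy5 was also lowest, was left out. Within arrays, Adcy5 less Adcy6 was 2.48, 3.12 and 2.39 before and 3.58, 4.17 and 3.29 after the first heartbeat, a difference between the means of 1.01 (p = 0.1, two-sided exact permutation test), which was 1.39 within slide 1 and 0.53 within slide 2. Since Adcy6 was not well above background in pre-heartbeat replicate 2, the 3.12 of that array is a lower limit. The 1.01, and the 0.53 within slide 2, are therefore upper limits. A value above 3.29 in that array would make the groups overlap, so neither their separation nor the permutation p of 0.1 is certain. Without that array the difference was 1.24. For Adcy5 less Adrb1, a pair chosen after the values had been seen, the means differed by 1.1.

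Over the 8 genes, the groups were apart with the post-heartbeat arrays higher in 3, against 5.38% of tested probes, and apart in the other direction in 0, against 6.17%. The median log2 difference of the 8 genes was 0.35, and that of all tested probes −0.03. As the genes were chosen with earlier results of these data known, these values are a description with no test.

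The rest of the pathway was read from 11 lists that hold 114 genes, of which 113 were on the array and 78 were tested. In limma without the block 3 of the 78 were higher and 0 lower, against 0.124% and 0.0207% of tested probes. The fit blocked by slide gave 5 higher and 0 lower, against 1.09% and 0.420%. At an unadjusted p under 0.05 there were 12 higher and 4 lower, against 3.90% and 3.1% of tested probes. The selection rule of the methods took 6 as higher and 2 as lower, against 1.90% and 1.16%. Read by the brightest tested probe of each gene, those 6 were substrates of protein kinase A in heart muscle, as were the 5 called with the block. The median log2 difference over the 78 genes was 0.09. The lists too were chosen with earlier results of these data known, so their counts are a description with no test.

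**Figure D3:**
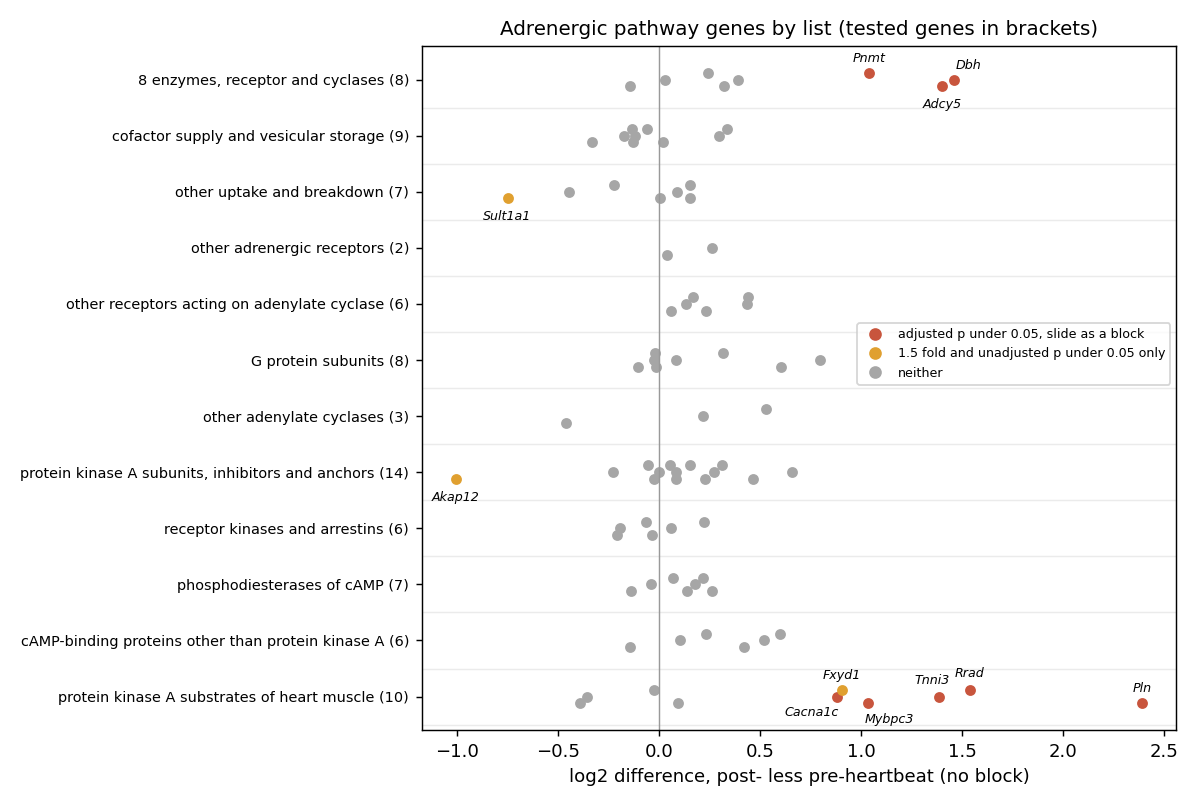
Log2 difference of the post-heartbeat less the pre-heartbeat group without the block (x axis) of every tested gene of the 8 and of the 11 lists (y axis, number of tested genes in brackets; vertical scatter within a list has no meaning). Colors mark genes past an adjusted p of 0.05 with the slide as a block, genes past the selection rule only, and neither, and the named genes to the right of 0.8 are Dbh, Pnmt, Adcy5 and 6 protein kinase A substrates.

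The genes that supply the enzymes or store their products did not pass either rule. Of 10 genes for the tetrahydrobiopterin cofactor, the vesicular transporters and the granule proteins, 9 were tested, 3 with positive and 6 with negative differences, and the median was −0.12. Without the block the largest rise was that of Slc18a2, the vesicular monoamine transporter, at 0.34 ± 0.20 (SE, limma adjusted p = 0.864). The largest fall was that of Cyb561, which supplies electrons to Dbh, at −0.33. With the slide as a block Slc18a2 differed by 0.49 (limma adjusted p = 0.171) and Cyb561 by −0.47. The largest blocked fall was that of Chga, at −0.56 (limma adjusted p = 0.225). Among 7 tested genes of uptake and breakdown, Sult1a1, a sulfotransferase, was selected as lower (−0.75 ± 0.18 SE, limma adjusted p = 0.247), and its groups were separate, from −1.95 to −1.38 before and −2.53 to −2.44 after the heartbeat. Slc6a2, the noradrenaline transporter, had a difference of 0.15 ± 0.16 (SE).

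Receptors were mostly near background. Of 8 other adrenergic receptors only Adra1b and Adra2b were tested, with differences of 0.04 and 0.26, and 0 of the 2 passed a rule. Adra2b repeated the split by slide seen in Th, with 1.0, 0.99 and 0.86 on slide 1 and −0.02, −0.10 and −0.17 on slide 2. Among 6 tested receptors of other ligands that act on adenylate cyclase, all 6 differences were positive, the largest that of Vipr1 at 0.44 ± 0.33 (SE, limma adjusted p = 0.864), and 0 passed. With the slide as a block, those of Drd5, Adora2b and Glp1r turned to −0.04, −0.06 and −0.06, and the median went from 0.20 to 0.04. The 8 tested G protein subunits had a median of 0.03. Gnas, the stimulatory alpha subunit, differed by 0.08 ± 0.13 (SE), Gnal had the largest rise (0.80, but 0.07 with the slide as a block) and Gng5 the largest fall (−0.11). Gnao1, the alpha subunit of the Go protein, had a difference of 0.60 ± 0.24 (SE, limma adjusted p = 0.672) with overlapping groups. Its dimmer second probe gave 0.68 with separate groups and met the selection rule (limma adjusted p = 0.295), and both probes were well above background on 2 of 3 pre-heartbeat arrays.

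Of the 8 other adenylate cyclases, 3 were tested and none was called. Adcy4 had −4.42, −4.55 and −4.43 before and −3.93, −3.93 and −3.97 after the heartbeat, with separate groups and a difference of 0.53 ± 0.13 (SE, limma adjusted p = 0.249). Adcy3 passed the filter only through the pre-heartbeat group, as it was not well above background on any post-heartbeat array. Its groups overlapped, and its difference of −0.46 is a lower limit of a fall, given with no test. Adcy9 differed by 0.22 ± 0.36 (SE).

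Among 14 tested subunits, inhibitors and anchors of protein kinase A, 0 were called in limma and Akap12, an anchoring protein, was selected as lower. It had −1.98, −1.55 and −1.80 before and −2.45, −3.18 and −2.71 after the heartbeat, a difference of −1.01 ± 0.22 (SE, limma adjusted p = 0.208), and its second probe gave −0.88, not selected. The largest rise was that of the inhibitor Pkia, at 0.66 ± 0.28 (SE, limma adjusted p = 0.730) with overlapping groups. With the slide as a block it was 0.83 (limma adjusted p = 0.139). Akap1 differed by 0.47 with separate groups (limma adjusted p = 0.795), and the catalytic subunit gene Prkaca by 0.31 ± 0.26 (SE). Receptor kinases and arrestins (6 tested) ranged from −0.21 for Grk4 to 0.22 for Grk2, and phosphodiesterases of cAMP (7 tested) from −0.14 for Pde2a to 0.26 for Pde7b, with 0 called or selected in both lists. The Pde7b probe was well above background on 2 of 3 pre-heartbeat arrays and differed by 0.02 with the slide as a block. A second Pde7b probe, which was not tested, gave −0.49.

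Other cAMP-binding proteins included pacemaker channels and the Popeye domain proteins. None of the 6 tested was called, or selected without the block, but 3 had separate groups: Hcn4, the pacemaker channel (0.60 ± 0.21 SE, limma adjusted p = 0.539), Popdc1 (0.52 ± 0.17 SE, named Bves on the array) and Popdc2 (0.42 ± 0.16 SE). With the slide as a block, Popdc1 met the selection rule (0.62, 1.54-fold, limma adjusted p = 0.0733). Hcn3 was the largest fall at −0.15.

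Among the 11 lists, protein kinase A substrates of heart muscle were the list with calls. All 10 were tested, 6 were selected as higher, 3 of these were called higher in limma without the block and 5 with it, and the median was 0.89. The 12 cardiac muscle markers described below rose too, with 5 selected, 0 called without and 3 with the block, and a median of 0.62. Whether the substrates changed apart from heart muscle genes in general was not tested. Pln, which encodes phospholamban, the brake on the calcium pump of the sarcoplasmic reticulum, was −2.68, −2.68 and −2.51 before and −0.50, 0.04 and −0.24 after the heartbeat, 5.24-fold higher (2.39 ± 0.17 SE, limma adjusted p = 0.0172). Rrad, a small GTPase that restrains the L-type calcium channel, was 2.90-fold higher (1.54 ± 0.16 SE, limma adjusted p = 0.0353). Tnni3, adult cardiac troponin I, was 2.62-fold higher (1.39 ± 0.15 SE, limma adjusted p = 0.0416). The groups were separate for all 3 of these genes.

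Mybpc3, the thick-filament myosin-binding protein C, was called with the slide as a block (1.12, adjusted p = 0.0212 in limma), and its values were 1.03 and 0.115 without it. Cacna1c, the pore of the L-type calcium channel, was also called with the block (0.86, adjusted p = 0.0459 in limma), and its second probe differed by 0.59 and was not called. Fxyd1, phospholemman, was selected (0.90 ± 0.21 SE, limma adjusted p = 0.239). Ryr2, the calcium release channel, had overlapping groups and a difference of −0.03, and Ppp1r1a, inhibitor-1 of protein phosphatase 1, was lower in separate groups by a difference of −0.36 ± 0.13 (SE) that missed the limma threshold (adjusted p = 0.569).

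Markers of other cells were read beside these genes. All 12 cardiac muscle markers were tested, and each had a positive difference. Of these, 5 (Myh6, Myh7, Tnni1, Myl4 and Smyd1) were selected as higher, 0 were called in limma without the block and 3 (Myh6, Myh7 and Myl4, with blocked differences of 1.06, 1.19 and 1.04) with it. Their summed linear signal, in units of the array's 75th percentile, was 378 to 636 in the pre-heartbeat arrays and 696 to 835 in the post-heartbeat arrays. The cardiac markers thus moved in the same direction as Dbh, Pnmt and Adcy5 and as the selected protein kinase A substrates. The part of heart muscle cells in those differences was not tested.

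Sympathoadrenal and neural crest markers were read in the same way. Of 12 genes 8 were tested, 0 were called in limma with or without the block or selected, and their median difference was −0.01. Phox2a, a defining factor of this lineage, and Foxd3 were not well above background on any array. Tfap2a and Tfap2b, factors of the neural crest and surface ectoderm, did not pass the filter either and were not tested. Tfap2a was well above background on 2 of 3 arrays of each group, with −2.99, −5.85 and −3.90 before and −4.53, −5.73 and −6.33 after the heartbeat. Its groups overlapped, and the post-heartbeat arrays were lower within both slides, by differences of −2.14 and −1.45. Tfap2b, well above background on 2 pre-heartbeat arrays and 1 post-heartbeat array, also had overlapping groups and differences of −2.56 within slide 1 and −0.51 within slide 2. The summed signal of the 8 tested genes was 1.59 to 1.99 before and 1.39 to 1.6 after the heartbeat. Most of it came from Isl1, which heart progenitors also express, as they do Hand2. Without these genes the sum of the other 6 was 0.325 to 0.430 before and 0.294 to 0.435 after it.

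Other tissues were represented as follows. Neural ectoderm markers (4 of 10 tested) had a summed signal of 6.75 to 7.66 before and 2.60 to 3.14 after the heartbeat. Otx2 fell by 1.56 on the log2 scale (limma adjusted p = 0.0201), and Hesx1 was called lower with the block (−1.65, adjusted p = 0.0181 in limma), while Pax6, Six3, Zic1 and Rax were too dim to test. Definitive endoderm (7 tested) had summed signals of 8.84 to 10.1 before and 7.43 to 9.19 after the heartbeat. Yolk sac endoderm (10 tested) had 52.9 to 56.4 before and 34.5 to 45.5 after it, and endothelium (10 tested) had 19.4 to 19.9 before and 14.5 to 15.6 after it, with 0 genes of these 3 lists called or selected. Erythroid markers (7 tested) spanned 2.08 to 3.90 before and 2.94 to 5.48 after it, and Epor was called with the block (1.18, adjusted p = 0.0418 in limma). The part of these cells in the differences of the 8 genes was not tested.

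**Figure D4:**
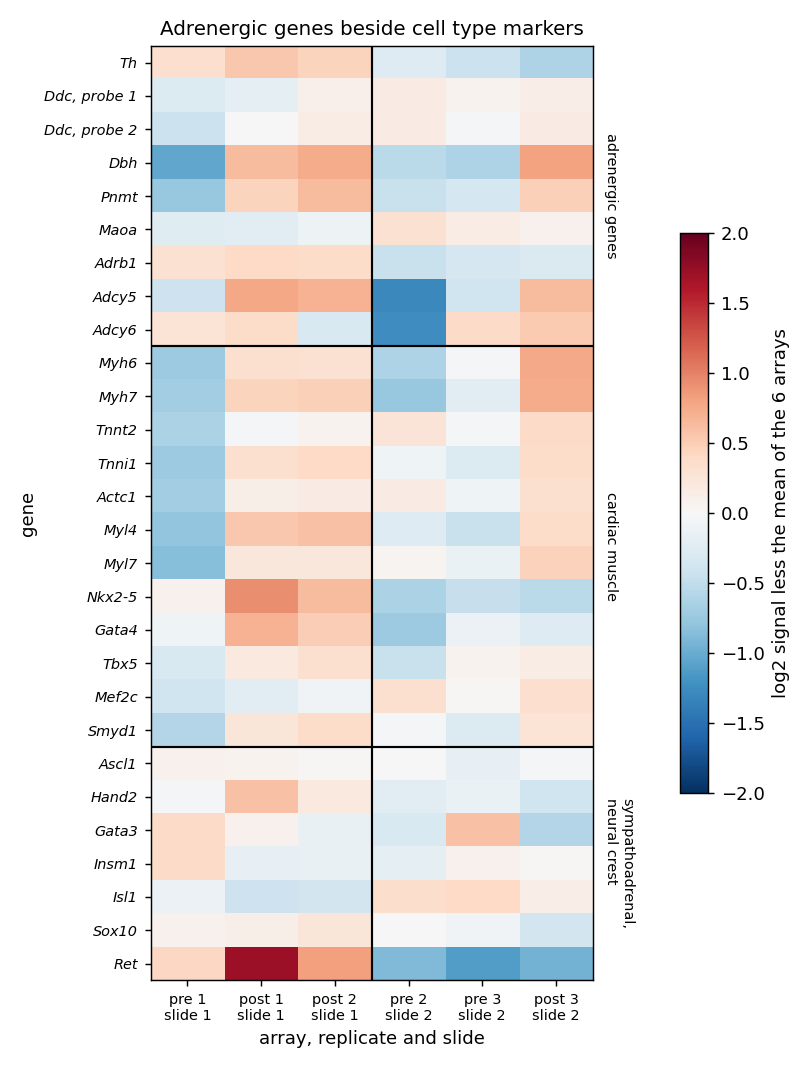
Log2 signal less the mean over the 6 arrays (color, from −2 to 2) of the 9 probes (top), the 12 cardiac muscle markers (middle) and 7 sympathoadrenal and neural crest markers (bottom), with arrays ordered by slide (x axis). Dbh, Pnmt, Adcy5, Myh7 and Myl4 are higher in the post-heartbeat arrays of both slides, whereas Th, Adrb1 and Ret are higher on slide 1.

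For each of the 7 genes well above background on all 6 arrays, the most similar genes outside the lists were found by Pearson's correlation over the 6 arrays among 11041 genes. The points share the slides and the groups, so the values are a description with no test. Dbh was most like Nppb, which encodes B-type natriuretic peptide (r = 0.997), and Fbxl22, a sarcomere-associated F-box protein (r = 0.995). Pnmt was most like Mybphl, a myosin-binding protein H-like gene of atrial muscle (r = 0.998), and Fabp3, the heart fatty acid binding protein (r = 0.997). Adcy5 was most like Pde4dip, the phosphodiesterase-anchoring myomegalin (r = 0.996), and Klhdc8b (r = 0.994). These 6 neighbours had log2 differences of 1.40, 1.17, 1.31, 0.76, 1.72 and 1.16. They were chosen by signals that hold the group difference, so differences in the same direction follow from the choice.

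The genes with overlapping groups had other neighbours. Th was most like Cacna1a and Atxn2l (r = 0.998 for each), Adrb1 most like Tmem104 and Cldnd2 (r = 0.999 for each), Ddc most like Polh (r = 0.992) and Snupn (r = 0.990), and Maoa most like Bag4 (r = 0.995) and Nudt21 (r = 0.994). The log2 differences of these 8 neighbours lay between −0.15 and 0.42, and these too follow from the choice.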

How the data were processed

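Signals were read from 6 single-color Agilent arrays (Cy3-labeled cRNA). The authors deposited an intensity for each spot, the processed signal, background-subtracted by Feature Extraction 10.7.3.1 and with no normalization across arrays. A deposited table of linear ratios, which the authors made by a 75th percentile shift, served as an alternative. Here outlier spots were left out, log2 signals were set against the 75th percentile of each array (1142.8 to 1694.1 intensity units) and spots of a probe were averaged. A probe entered the tests when a share of 0.5 or more of its spots were well above background on every array of 1 group or both (19299 of 30367 probes). No spot was saturated, and the number of arrays limits the precision.

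Groups were compared with limma 3.58.1 in R 4.3.3 with Benjamini-Hochberg adjustment, with the slide as a block as an alternative, and by exact permutation tests. With 2 groups, the Tukey HSD test of the methods equals the pooled comparison of means. For a gene with several probes, the brightest tested one was used. Probe positions are those of the array annotation (rn4), and 18006 probes (59.3%) were matched to RefSeq. Named genes were the 8 genes, Adrb3, every list gene called or selected, otherwise the largest rise and fall of a list, and the 2 nearest genes by correlation, with some others named after their values were seen, and a few genes of the rule are not reported here. The genes and lists were chosen with earlier results of these data known.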

Additional observations from a re-analysis of the deposited data

How the results depend on the processing

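Dbh, Pnmt and Adcy5 were higher in the post-heartbeat group under all 18 alternatives, with log2 differences of 1.28 to 1.56, 0.92 to 1.12 and 1.07 to 1.55. Their adjusted p ranged from 0.00661 to 0.284, 0.0201 to 0.432 and 0.0390 to 0.487, and the cause of the lost or gained calls was not tested. The selection rule of the methods took these 3 genes as higher in every alternative where it was applied.

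Without the block, limma called 1 of the 8 genes and 24 tested probes higher and 4 lower. Blocking by slide gave 3 genes, 211 and 81, with the log2 fold change of Th at −0.060. The replicate block gave 3 genes, 110 and 56, with Dbh at an adjusted p of 0.0191. Deviations from the group means correlated at 0.65, −0.28 and 0.49 for replicate numbers 1, 2 and 3. All pairs of a pre-heartbeat and a post-heartbeat array correlated positively on the same slide and negatively across slides. Numbers 1 and 3 share a slide and number 2 does not, so these values cannot decide whether the replicate numbers pair the samples. Normexp background correction called 3 genes and 43 probes higher, and with it the selection rule took 203 probes as higher and 78 as lower, against 366 and 223. An intensity trend in limma gave 2 genes, 38 and 7. Quantile normalization called 0 genes and 11 probes higher, the percentile over bright probes 0 and 12, and the ratios of the authors 0 and 10. Without a filter 0 genes were called, 1 probe was higher and 0 were lower, and the selection rule took 427 as lower. The methods' test with Benjamini-Hochberg adjustment called 0 genes, 0 probes higher and 0 lower. With probes averaged by gene, 0 of the 8 genes were called, Dbh having an adjusted p of 0.0512.

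Leaving out each array in turn, limma called 0 of the 8 genes, 0 to 1 probes higher and 0 to 1 lower, and the selection rule took 247 to 401 probes as higher (fewest without post-heartbeat replicate 2) and 123 to 358 as lower (fewest without post-heartbeat replicate 2, most without post-heartbeat replicate 3). Ddc ranged from −0.10 (without pre-heartbeat replicate 1) to 0.14, with −0.02 and −0.03 without post-heartbeat replicates 2 and 3. Adcy6 ranged from −0.14 (without pre-heartbeat replicate 2) to 0.67. A filter that asked for every spot of a probe, chosen after seeing the data, called 1 of the 8 genes.

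Adrb1 and Adcy6 lay close to background. Without the block their intervals of −0.33 to 0.96 and −0.69 to 1.47 hold changes of more than 1.5 fold. With the slide as a block that of Adrb1, −0.21 to 0.39, holds none, and that of Adcy6, −0.70 to 1.40, still does. Without the block the Adrb1 difference was 0.32, but 0.00047 with normexp background correction. Its size thus depended on the treatment of background, and its blocked interval describes the probe signal and does not bound the transcript change.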
